A study of Mus musculus with 24 samples.

Results

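The genes described here are 9 markers of autonomic neurons, Phox2a, Th, Dbh, Tubb3, Stmn2, Prph, Elavl4, Chrna3 and Gap43, followed gene by gene through vessels from control and Prdm6-deficient mouse embryos. They were chosen by name, though with earlier results of these data known, and all 9 were found among the 54752 genes of the count table. Only 5 of the 9 (Tubb3, Stmn2, Prph, Elavl4 and Gap43) had enough reads to pass the filter on low counts, which 16463 genes passed in all. Elavl4, an RNA-binding protein of neurons, was the 1 member that passed the test between genotypes. It was higher in Prdm6-deficient vessels than in control vessels, by 5.39-fold in the ductus arteriosus (DA) and by 8.07-fold in the ascending aorta. The aorta value passed the test under each alternative run. The DA value did not pass in another test, limma-voom, with the animal as a random block, nor within 1 of the 2 series of animals. The other 4 members tested passed the test in no comparison, and the 4 genes that mark a noradrenergic or ganglionic neuron most directly, Phox2a, Th, Dbh and Chrna3, were at or near 0 reads. The label of autonomic neurons thus goes further than these libraries show, and the set is called the 9 neuronal genes below.

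RNA-Seq was performed on DA and ascending aorta from E18.5 embryos on a C57/Black6 background, and the libraries used here came from 7 control DA, 5 Prdm6-deficient DA, 6 control aorta and 5 Prdm6-deficient aorta samples. Prdm6-deficient embryos were Wnt1Cre;PRDM6f/f, in which Cre under the Wnt1 promoter acts on floxed Prdm6 in neural crest cells and their progeny while other cells keep the gene. In control DA, 5 embryos were PRDM6wt/f, 1 was PRDM6wt/wt and 1 was Wnt1Cre;PRDM6wt/wt. In control aorta, 5 embryos were PRDM6wt/f and 1 was the same Wnt1Cre;PRDM6wt/wt embryo. Cre was therefore present in 1 control embryo only (control DA replicate 2 and control aorta replicate 3), and apart from that embryo Cre and the loss of Prdm6 cannot be told apart. Prdm6-deficient DA replicates 1 and 2 were pools of 2 embryos each, and replicate 4 was not analysed here. The animal numbers fall into 2 runs, called series 1 and series 2, which the labels do not describe further. All 6 control aortas and 4 of the 5 Prdm6-deficient aortas came from embryos that also gave a DA library.

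Autonomic neurons arise from the neural crest, as do Schwann cells and much of the smooth muscle of the outflow vessels. Phox2a helps to switch on the noradrenergic enzymes, and sympathetic neurons then make tyrosine hydroxylase and dopamine beta-hydroxylase. Their cell bodies lie in ganglia and their axons run along arteries into the vessel wall, and axons hold little messenger RNA compared with cell bodies.

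Levels are given in CPM, in which counts are divided by TMM-adjusted library totals. More than 3 counts were taken here as detected. Total counts ranged from 15163974 to 22610547 per library, so that 3 counts stood for 0.133 to 0.198 CPM by totals without the TMM adjustment. Limits of this kind cover counting error only. Prdm6, counted over the whole gene, was at 84.9 to 128 CPM in DA and 95.6 to 135 CPM in aorta of controls and at 58.6 to 78.5 and 61.9 to 81.2 CPM in DA and aorta of Prdm6-deficient embryos, so the genotypes did not overlap in either vessel. Smooth muscle genes (Myh11, Acta2, Tagln, Cnn1, Mylk and Des) summed to between 8085 and 23488 CPM in the libraries. Control DA replicate 7 stood apart in glial genes, with 296 CPM summed over 12 Schwann cell and glia markers against 61.5 to 87.9 CPM in the other control DA libraries. In bulk samples such as these, fewer cells of a type and less RNA per cell cannot be told apart. The p-values measure the spread between samples, of which 2 are pools and several share an embryo across the vessels.

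**Figure D1:**
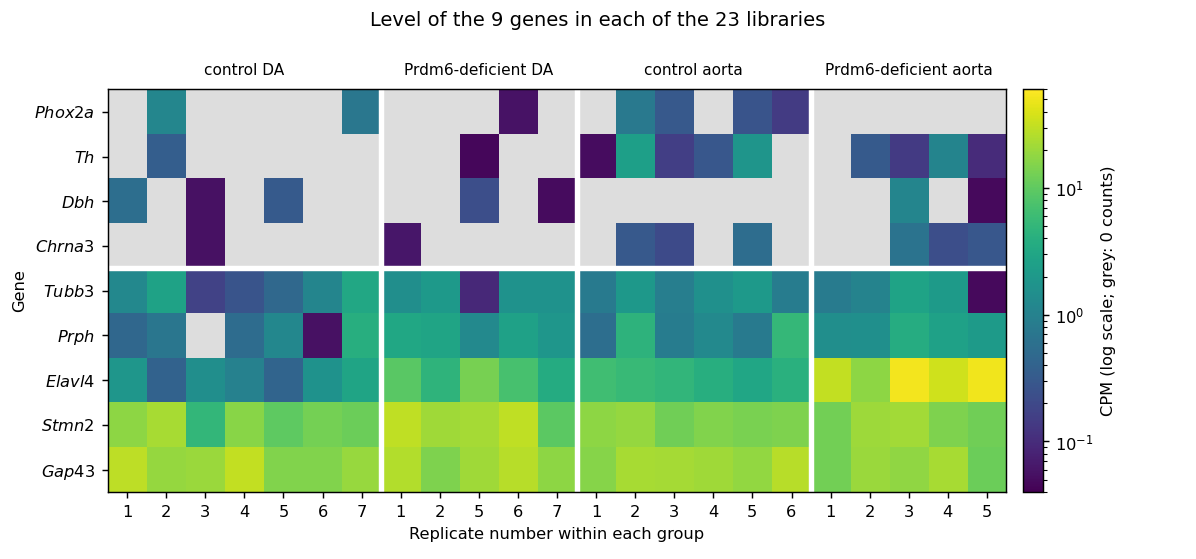
Level of each of the 9 neuronal genes (rows) in each library (columns, by group and replicate number) in CPM on a log color scale, with grey for 0 counts. Phox2a, Th, Dbh and Chrna3 are grey or dark in most libraries, Stmn2 and Gap43 are bright in all groups, and Elavl4 is brightest in the 5 Prdm6-deficient aorta libraries. Colors compare libraries within a gene, since CPM does not account for gene length.

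Phox2a, the homeodomain factor of autonomic neuron identity (ENSMUSG00000007946.11, mm10 chromosome 7, 101818313 to 101822726, plus strand), had 0 counts in 16 of 23 libraries and more than 3 counts in 5. It reached 23 counts (1.16 CPM) in control DA replicate 2 and 15 counts (0.723 CPM) in control DA replicate 7, with 0 in the other control DA libraries. In control aorta it had 15, 6, 6 and 3 counts in replicates 2, 3, 5 and 6 and 0 in the other two. The 5 Prdm6-deficient DA libraries held 1 count in all and the Prdm6-deficient aorta libraries held 0. More than 3 counts were thus seen in 5 of 13 control libraries and in 0 of 10 Prdm6-deficient libraries. These libraries are not independent. Control DA replicate 2 and control aorta replicate 3 share an embryo, as do control DA replicate 7 and control aorta replicate 5. With the filter left out, Phox2a was not called with genotype (adjusted p by edgeR = 0.209 in DA and 0.186 in aorta). Zero counts in a library allow a level of up to about 0.133 to 0.198 CPM, by totals without the TMM adjustment. Exons of Phox2a share 95 bases with exons of Inppl1 on the other strand, and the counting is not stated to use strand.

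Th, tyrosine hydroxylase, the enzyme that commits tyrosine to catecholamine synthesis (ENSMUSG00000000214.11, chromosome 7, 142892752 to 142931128, minus strand), was detected mainly in aorta. In control aorta it had 48 counts (2.5 CPM) in replicate 2, 40 counts (1.80 CPM) in replicate 5 and 0 to 6 counts in the other four. In Prdm6-deficient aorta it had 0, 7, 3, 23 and 2 counts in replicates 1 to 5. The ranges of both aorta groups overlapped, and in the DA only control replicate 2 held more than 1 count of Th (7 counts). Dbh, dopamine beta-hydroxylase, which makes noradrenaline from dopamine (ENSMUSG00000000889.8, chromosome 2, 27165233 to 27183200, plus strand), was at 0 in all 6 control aortas, including the replicates with the most Th. Its highest value was 24 counts (1.11 CPM) in Prdm6-deficient aorta replicate 3, followed by 12 counts (0.557 CPM) in control DA replicate 1.

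Chrna3, the alpha subunit of the ganglionic nicotinic receptor (ENSMUSG00000032303.7, chromosome 9, 55010111 to 55026562, minus strand), had at most 1 count in any DA library. In control aorta it had 6, 4 and 12 counts in replicates 2, 3 and 5 and 0 in the other three, and in Prdm6-deficient aorta it had 14, 5 and 6 counts in replicates 3, 4 and 5 and 0 in the other two. Genotypes overlapped in each vessel. Of the 4 genes Phox2a, Th, Dbh and Chrna3, 10 libraries held more than 3 counts of none, 7 of 1, 4 of 2 and 2 of 3 genes. No library held all 4, and the 2 with Phox2a, Th and Chrna3 were control aorta replicates 2 and 5. When the filter was left out and 26533 genes were tested, none of the 4 was called in any of 5 comparisons. The lowest edgeR adjusted p of these 20 values was 0.12 (Th, control DA against control aorta), and 9 of the 20 had an unadjusted p below 0.05.

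Tubb3, the neuronal class III beta-tubulin (ENSMUSG00000062380.4, chromosome 8, 123411424 to 123422015, plus strand), was low and uneven. It ranged from 0.167 to 3.18 CPM (median 1.11) over the 7 control DA libraries and stood at 1.5, 2.04, 0.0916, 1.67 and 1.67 CPM in Prdm6-deficient DA replicates 1, 2, 5, 6 and 7. Control aorta ranged from 0.808 to 2.07 CPM (median 1.26), and Prdm6-deficient aorta replicates 1 to 5 stood at 0.848, 1.05, 2.82, 2.14 and 0.0488 CPM. All groups overlapped, and 2 Prdm6-deficient libraries held only 2 and 1 counts. The log2 fold change with Prdm6 loss was 0.09 (SE 0.77, adjusted p by edgeR = 0.966) in DA, with a 95% interval of -1.42 to 1.59, and 0.01 (SE 0.79, adjusted p by edgeR = 1) in aorta, with an interval of -1.54 to 1.56. Intervals this wide hold changes of more than 2-fold in either direction.

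Prph, peripherin, the intermediate filament of peripheral neurons (ENSMUSG00000023484.14, chromosome 15, 99055174 to 99058978, plus strand), ranged from 0 to 3.95 CPM (median 0.535) in control DA. It was 3.12, 2.90, 1.24, 2.64 and 1.86 CPM in Prdm6-deficient DA replicates 1, 2, 5, 6 and 7. All of these lay above the 6 lower control DA libraries, whose highest value was 1.17 CPM, and below control DA replicate 7. Over all libraries the log2 fold change was 1.24 (SE 0.77, adjusted p by edgeR = 0.359, 95% interval -0.27 to 2.75). With 1 library left out it ran from 1.02 (without control DA replicate 3) to 2.25 (without control DA replicate 7), with adjusted p by edgeR of 0.0501 to 0.48. Prph was not called under any of these. In aorta, Prph ranged from 0.555 to 5.18 CPM (median 1.06) in controls and stood at 1.48, 1.51, 3.74, 2.65 and 2.15 CPM in Prdm6-deficient replicates 1 to 5, with a log2 fold change of 0.06 (SE 0.80, adjusted p by edgeR = 0.998, 95% interval -1.49 to 1.62).

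Stmn2, a stathmin that regulates microtubules in growing axons (ENSMUSG00000027500.10, chromosome 3, 8509360 to 8561606, plus strand), was detected in every library. It ranged from 5.06 to 23.3 CPM (median 13.1) in control DA and was 29.7, 21.4, 22.4, 29.8 and 9.52 CPM in Prdm6-deficient DA replicates 1, 2, 5, 6 and 7. The highest 2 DA libraries were Prdm6-deficient, but replicate 7 of that group lay below the control median. The log2 fold change of 0.71 (SE 0.27, adjusted p by edgeR = 0.0942, 95% interval 0.18 to 1.24) did not pass the threshold of 0.01. With 1 library left out it ran from 0.56 (without control DA replicate 3) to 0.90 (without Prdm6-deficient DA replicate 7). The adjusted p by edgeR was then 0.0207 to 0.232, so it was not called. The log2 fold change was 0.94 within series 1 and 0.17 within series 2. In aorta, Stmn2 ranged from 12.2 to 19.0 CPM (median 14.8) in controls and stood at 12.5, 20.8, 22.0, 14.6 and 12.3 CPM in Prdm6-deficient replicates 1 to 5, with a log2 fold change of 0.10 (SE 0.28, adjusted p by edgeR = 0.967, 95% interval -0.45 to 0.66).

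Gap43, a growth cone protein that Schwann cells and other cells also make (ENSMUSG00000047261.9, chromosome 16, 42248442 to 42340651, minus strand), had at least 235 counts in every library. It ranged from 15 to 30.8 CPM (median 19.6) in control DA and was 25.8, 14.4, 21.3, 27.6 and 17.1 CPM in Prdm6-deficient DA replicates 1, 2, 5, 6 and 7. The group means were equal to 3 digits, at 21.2 ± 6.28 (SD, n = 7) and 21.2 ± 5.61 CPM (SD, n = 5), with a log2 fold change of 0.00 (SE 0.21, adjusted p by edgeR = 0.993, 95% interval -0.40 to 0.41). It was 0.36 within series 1 and -0.48 within series 2, neither of them called. Control aorta ranged from 15.8 to 27 CPM (median 21.5), and Prdm6-deficient aorta was 12.5, 20.1, 18.0, 22.8 and 11.5 CPM in replicates 1 to 5. The log2 fold change in aorta was -0.32 (SE 0.21, adjusted p by edgeR = 0.622, 95% interval -0.74 to 0.10), and the groups overlapped.

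Elavl4 encodes HuD, an RNA-binding protein that stabilizes messenger RNAs in differentiating neurons. The gene (ENSMUSG00000028546.17) lies on chromosome 4, 110203722 to 110351909, on the minus strand, with 12 annotated transcripts that the gene counts do not separate. RefSeq gives start sites at its 5′ end and further inside the gene. The 250 bases before a start site of each region are shown because Elavl4 was the 1 member that passed the test between genotypes. The upstream stretch, chr4:110351912-110352161 on the minus strand of GRCm38.p6 (the assembly that mm10 names), lies outside the annotated gene, and the inner stretch, chr4:110287528-110287777 on the minus strand, lies inside the gene and touches no annotated exon.
Elavl4 upstream start: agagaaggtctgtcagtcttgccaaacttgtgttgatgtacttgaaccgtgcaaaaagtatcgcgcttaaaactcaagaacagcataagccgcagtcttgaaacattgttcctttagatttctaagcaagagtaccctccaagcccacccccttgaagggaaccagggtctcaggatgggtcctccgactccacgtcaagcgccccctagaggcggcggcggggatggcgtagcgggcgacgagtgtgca
Elavl4 inner start: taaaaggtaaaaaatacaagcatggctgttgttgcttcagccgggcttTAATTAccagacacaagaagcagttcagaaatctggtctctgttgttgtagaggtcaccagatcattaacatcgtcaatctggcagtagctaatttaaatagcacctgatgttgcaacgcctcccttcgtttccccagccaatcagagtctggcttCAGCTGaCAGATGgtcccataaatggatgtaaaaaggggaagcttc
Capitals mark matches, on either strand, to TAATTA (a homeodomain core), TGACGTCA (a cyclic AMP response element), CAGCTG and CATCTG (E-boxes, the latter here as its reverse complement CAGATG) and TATAAA. The upstream stretch held none, and the inner stretch held TAATTA at position -202, CAGCTG at -46 and CATCTG at -39 from the start site. Among 32851 RefSeq windows of 250 bases, 4.84% held TAATTA, 13% CAGCTG and 14.4% CATCTG, so such matches are common and are a description only. Of the 10 windows found for 7 of the 9 members, the others with a match were an inner Elavl4 window that overlaps the one shown, another inner one with CATCTG at -101, the Th window with TGACGTCA at -45 (1.55% of windows) and the Prph window with TATAAA at -31 (12.4% of windows).

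In the DA, Elavl4 ranged from 0.404 to 2.89 CPM (median 1.5) over the 7 control libraries, on 8 to 60 counts. It was 9.16, 4.6, 13.4, 7.07 and 3.63 CPM in Prdm6-deficient DA replicates 1, 2, 5, 6 and 7, on 74 to 293 counts. Every Prdm6-deficient library lay above every control. The group means were 1.39 ± 0.877 (SD, n = 7) and 7.58 ± 3.92 CPM (SD, n = 5), a log2 fold change of 2.43 (SE 0.38, edgeR quasi-likelihood test with Benjamini-Hochberg adjustment, adjusted p = 5.2e-05). With limma-voom and the animal as a random block, since several embryos gave both vessels, it was 2.55 and was not called (adjusted p = 0.031). That fit changed the method as well as adding the block, with a consensus correlation of 0.0337 between samples of a block. A block was 1 embryo, except that the pooled Prdm6-deficient DA replicate 2 was joined with the aortas of its 2 embryos (Prdm6-deficient aorta replicates 1 and 2). Limma-voom without the block was not run, so the 2 changes cannot be told apart. Called here means an adjusted p below 0.01 with a log2 fold change beyond 0.5 either way. By this rule 2.61% of genes tested were called higher and 2.82% lower in Prdm6-deficient DA, and groups did not overlap for 5.66% of genes. Of the members tested, 1 of 5 was called, and it was higher.

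In the aorta, control replicates 1 to 6 held Elavl4 at 3.01 to 6.41 CPM (median 4.55), on 67 to 127 counts. Prdm6-deficient aorta replicates 1 to 5 held 30.9, 17.5, 53.2, 35.1 and 51.5 CPM, on 381 to 1151 counts. The lowest Prdm6-deficient library was more than 2 times the highest control, and the groups did not overlap. The means were 4.66 ± 1.22 (SD, n = 6) and 37.6 ± 14.9 CPM (SD, n = 5), a log2 fold change of 3.01 (SE 0.39, adjusted p by edgeR = 6.6e-06). Across genes tested, 1.63% were called higher, 0.826% lower and 6.95% did not overlap between the aorta groups. Again 1 of the 5 members tested was called, and it was higher.

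**Figure D2:**
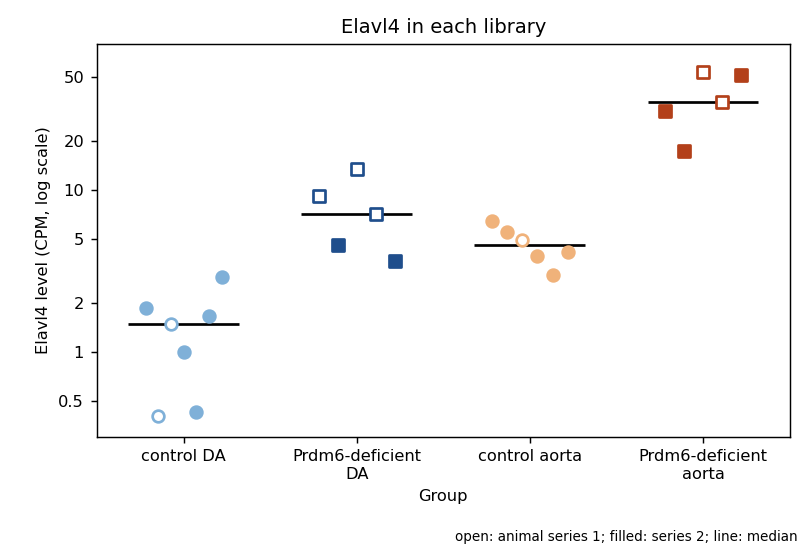
Elavl4 level in CPM (log axis) in each library of the 4 groups, with a line at the group median; open symbols are animal series 1 and filled symbols series 2. The Prdm6-deficient libraries lie above all controls of the same vessel, at 3.63 to 13.4 CPM in DA and 17.5 to 53.2 CPM in aorta.

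The Elavl4 difference in the DA was taken within each animal series as well, though the series were not tested against each other. In series 1 the 3 Prdm6-deficient DA libraries (replicates 1, 5 and 6) held 7.07 to 13.4 CPM and the 2 controls (replicates 2 and 3) 0.404 and 1.5 CPM, a log2 fold change of 3.38 (adjusted p by edgeR = 0.00354). In series 2 the 2 Prdm6-deficient libraries held 4.6 and 3.63 CPM and the 5 controls 0.426 to 2.89 CPM, a log2 fold change of 1.37 that was not called (adjusted p = 0.124). The genotypes did not overlap over all DA libraries, so they cannot overlap within a series, and that separation adds nothing. With the series as a covariate the value was 2.26 (adjusted p = 4.4e-04) in the DA and 2.93 (adjusted p = 1.7e-05) in the aorta. In the aorta, where series 1 has 1 control library, the value within series 2 was 2.85 (adjusted p = 4.3e-04). The Wnt1Cre;PRDM6wt/wt embryo had the lowest Elavl4 of the control DA libraries, at 0.404 CPM, and 4.93 CPM in its aorta, within the control range.

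Elavl4 also differed between the vessels. Control DA lay below control aorta in every library, with a log2 fold change of -1.72 (SE 0.37, adjusted p by edgeR = 0.00176), and Prdm6-deficient DA lay below Prdm6-deficient aorta in every library, with -2.31 (SE 0.40, adjusted p by edgeR = 0.00333). With the embryo as a block over the 6 control embryos that gave both vessels, the value was -2.03 and was not called (adjusted p = 0.0348). The Prdm6-deficient value was not called when any 1 of Prdm6-deficient DA replicates 2, 6 and 7 or Prdm6-deficient aorta replicates 3 and 5 was left out (adjusted p 0.0115 to 0.0153). Between control vessels 3.16% of genes were called higher and 2.19% lower in DA, with no overlap for 5.36%, and between Prdm6-deficient vessels the shares were 0.152%, 0.115% and 3.52%. None of the other 4 members tested was called between the vessels, with log2 fold changes of -1.15 to 0.00 in controls and 0.01 to 0.45 in Prdm6-deficient embryos.

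The order of the Elavl4 levels was thus control DA, control aorta, Prdm6-deficient DA and Prdm6-deficient aorta, from medians of 1.5, 4.55, 7.07 and 35.1 CPM. The middle groups overlapped, since control aorta reached 6.41 CPM and Prdm6-deficient DA replicates 2 and 7 lay at 4.6 and 3.63 CPM. The effect of Prdm6 loss itself was not shown to differ between the vessels. The log2 difference of the DA effect minus the aorta effect was -0.58 (SE 0.54, adjusted p by edgeR = 0.699), with a 95% interval of -1.64 to 0.47. In that test 0.917% of genes were called higher and 1.66% lower, and 0 of the 5 members tested was called. These comparisons share libraries, so their values are given side by side only.

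**Figure D3:**
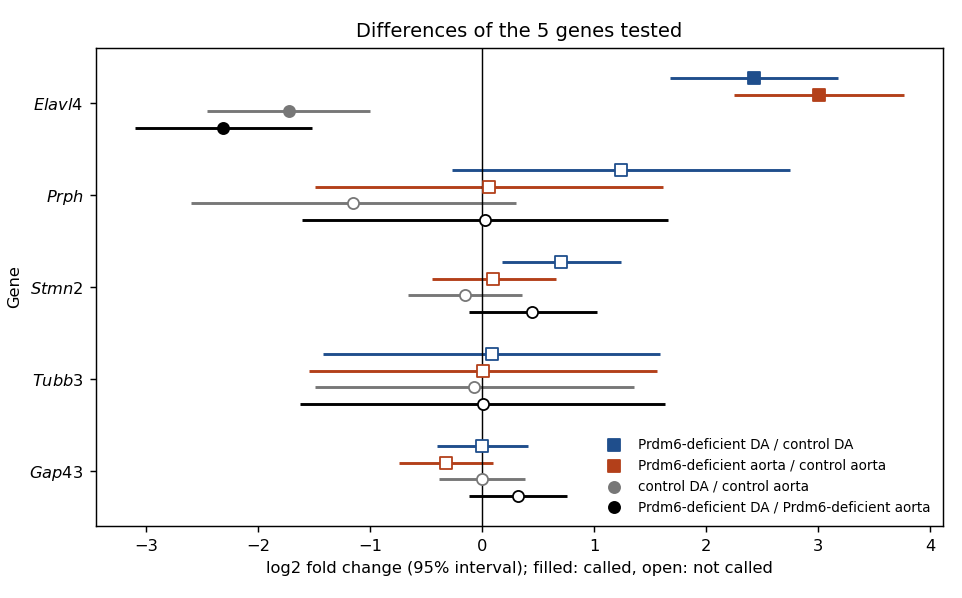
log2 fold changes (points) with 95% intervals (lines) of the 5 members tested in the 4 comparisons between groups, with filled points for called genes. The called points are all of Elavl4, at 2.43, 3.01, -1.72 and -2.31, and the widest intervals are those of Prph and Tubb3.

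Per length, as mean CPM per kilobase of merged exons, Gap43 was the most abundant of the 9 neuronal genes in every group, at 13.9 in control DA, 13.9 in Prdm6-deficient DA, 13.9 in control aorta and 11.1 in Prdm6-deficient aorta. Stmn2 was the next in the first 3 groups, at 2.46, 4.02 and 2.73, and in Prdm6-deficient aorta Elavl4 at 6.98 lay above Stmn2 at 2.93. In control DA, Elavl4 at 0.259 lay below Tubb3 at 0.699 and Prph at 0.492. The 4 genes that did not pass the filter lay at or below 0.338 CPM per kilobase in each group. Reads that fit several genes were divided among them by the counting, and the beta-tubulin and Elavl genes are families of related sequence, so levels of Tubb3 and Elavl4 carry that uncertainty too.

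Of the relatives of Stmn2, Elavl4 and Tubb3, 11 of 12 passed the filter, and their median log2 fold change was -0.31 in DA and -0.18 in aorta, beside 0.01 and 0.00 over all genes. In the DA, Tubb4a and Tubb6 fell with Prdm6 loss and none rose, and in the aorta 0 of 11 were called. Tubb4a, a beta-tubulin, was at 54.0 to 94.4 CPM in control DA libraries and 13.2 to 24.0 CPM in those of Prdm6-deficient DA (log2 fold change -2.01, SE 0.19, adjusted p by edgeR = 2.0e-08), and its change in the DA differed from that in the aorta by -1.65 (SE 0.26, adjusted p = 1.3e-04). Tubb6 fell by 0.53 on the log2 scale (SE 0.08, adjusted p by edgeR = 4.1e-05). Elavl1, the member of the Elavl family that all cell types use, was at 45.7 CPM on average in control DA libraries and 47.9 CPM in those of Prdm6-deficient DA (log2 fold change 0.07, SE 0.11), and at 43.4 and 42.8 CPM in control and Prdm6-deficient aorta (-0.02, SE 0.12). Elavl2 and Elavl3, the other neuronal paralogs, stayed at or below 1.84 CPM in each library. Elavl2 was not called, and Elavl3 did not pass the filter.

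**Figure D4:**
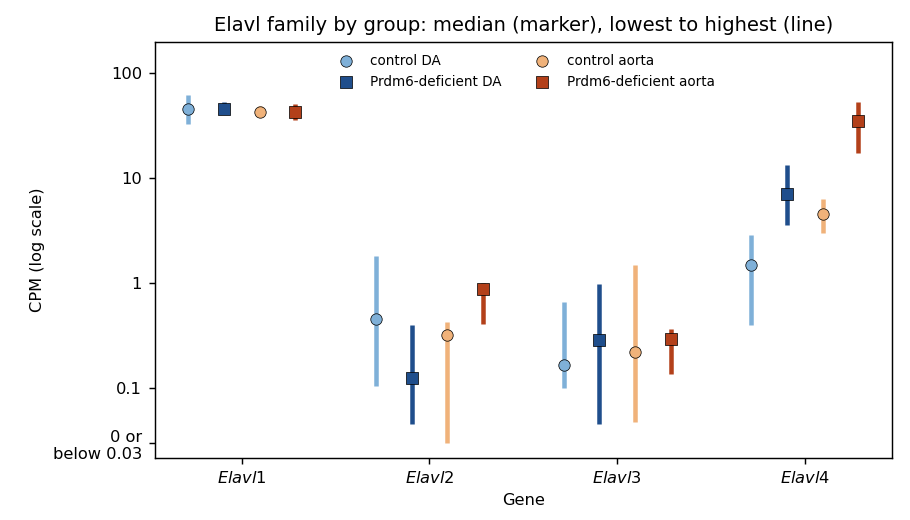
Levels of the 4 Elavl genes in each group in CPM (log axis), with the median as a marker and a line from the lowest to the highest library. The groups separate by genotype in both vessels for Elavl4 only, while group medians of Elavl1 lie at 42.4 to 45.7 CPM. Levels are for comparison between groups within a gene, and lines that reach 0 are drawn from the lower end of the axis.

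The other gene lists of the autonomic lineage were read in the same fit. Of 12 autonomic transcription factors, 9 were tested, and Hand2, which acts in sympathetic neurons and in outflow mesenchyme, was the only one called. It stood at 5.39 to 23.2 CPM in control DA and at 22.7 to 41.7 CPM in Prdm6-deficient DA (log2 fold change 1.37, SE 0.26, adjusted p by edgeR = 4.6e-04), and its groups overlapped. In aorta it was not called (0.41, SE 0.26, adjusted p = 0.579). The median of the 9 factors was 0.58 in DA and 0.31 in aorta.

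Of 12 genes for catecholamine synthesis, storage and uptake, 9 were tested and none was called in either vessel, with medians of -0.14 in DA and -0.08 in aorta. Ddc, the decarboxylase after Th, was at means of 4.04 and 3.43 CPM in control and Prdm6-deficient DA, and Slc18a2, the vesicular monoamine transporter, at 2.59 and 2.62 CPM. Slc6a2, the noradrenaline transporter, had 0 counts in every DA library. Of 11 cholinergic and peptide transmitter genes, 3 were tested and 1 was called. Penk, which encodes the enkephalin precursor and is also made by mesenchymal cells, was at 31.8 to 47.7 CPM in control aorta and 251 to 389 CPM in Prdm6-deficient aorta (log2 fold change 3.14, SE 0.27, adjusted p by edgeR = 5.7e-09). Its change in DA was 0.46 (SE 0.24, adjusted p = 0.264), and the effects in the vessels differed by -2.68 (SE 0.36, adjusted p = 2.4e-05).

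Of 10 further nicotinic receptor subunits, 4 were tested, and Chrna2 rose in both vessels while none fell. Chrna2, an alpha subunit of neuronal nicotinic receptors, was at 0.0556 to 0.891 CPM in control DA libraries and 3.63 to 16.1 CPM in those of Prdm6-deficient DA (log2 fold change 4.53, SE 0.50, adjusted p by edgeR = 2.9e-07). In aorta it was at 0.315 to 1.41 CPM in controls and 7.65 to 19.4 CPM in Prdm6-deficient libraries (log2 fold change 3.99, SE 0.50, adjusted p = 4.7e-06). Genotypes did not overlap in either vessel. Chrna3, the ganglionic subunit among the 9 neuronal genes, was at 0.0623 CPM or below in the same DA libraries.

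Among 9 neurotrophin and GDNF family receptors, 8 were tested. In DA, Ntrk3, Ngfr and Gfra3 rose and none fell. Gfra3, the artemin receptor of sympathetic and sensory neurons and of Schwann cell precursors, went from 0 to 2.32 CPM in control DA libraries to 5.34 to 13.1 CPM in those of Prdm6-deficient DA (log2 fold change 2.71, SE 0.53, adjusted p by edgeR = 7.9e-04). In aorta, Ntrk2 fell by 1.59 on the log2 scale (SE 0.22, adjusted p = 1.6e-05) and Gfra1 fell by 1.87 (SE 0.36, adjusted p = 0.00122), and none rose. Ntrk3, the NT-3 receptor, stood at 39.8 to 71.0 CPM in DA of controls and 76.9 to 106 CPM in DA of Prdm6-deficient embryos (0.83, SE 0.13, adjusted p = 3.5e-05), and Ngfr, the low-affinity neurotrophin receptor that glia also make, stood at 2.79 to 12.4 and 11.3 to 21.6 CPM (1.43, SE 0.35, adjusted p = 0.00554). For Ntrk2 and Ntrk3 the effects in the vessels differed, by 1.93 (SE 0.29, adjusted p = 1.1e-04) and 1.33 (SE 0.18, adjusted p = 3.4e-05).

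Of 37 genes for the neuronal cytoskeleton, synapse and RNA binding, 35 were tested. In DA, L1cam rose and Map1b and Nrn1 fell, in aorta 0 of 35 were called, and the medians were 0.05 and 0.08. L1cam, an axonal adhesion molecule that Schwann cells also make, had means of 1.81 CPM in control DA libraries and 6.46 CPM in those of Prdm6-deficient DA (log2 fold change 1.83, SE 0.47, adjusted p by edgeR = 0.0084), and the groups overlapped. Map1b fell by 0.88 (SE 0.13, adjusted p = 1.8e-05) and Nrn1 by 1.77 (SE 0.39, adjusted p = 0.00269) on the log2 scale. The DA effect differed from the aorta effect for Map1b, a microtubule-associated protein, by -0.97 (SE 0.18, adjusted p = 0.00102) and for Uchl1, a neuronal deubiquitinase, by -0.72 (SE 0.17, adjusted p = 0.00729). Snap25, a synaptic vesicle fusion protein, was at means of 1.35 and 2.61 CPM (0.95, SE 0.48, adjusted p = 0.23), and Nefm, a neurofilament, at 0.849 and 1.17 CPM (0.45, SE 0.72, adjusted p = 0.783).

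Factors that vessels release to guide sympathetic axons, and the receptors with which vessels answer them, were read beside the neuronal genes. Of 13 factors, 12 were tested. In DA, Bdnf rose from 12.1 to 31.6 CPM in controls to 33.1 to 53.3 CPM (log2 fold change 1.22, SE 0.20, adjusted p by edgeR = 8.8e-05), Ntf3 rose by 0.63 (SE 0.15, adjusted p = 0.00594) and Edn1 fell by 1.14 (SE 0.18, adjusted p = 3.7e-05). In aorta, Cxcl12 alone was called, with a rise of 0.73 (SE 0.09, adjusted p = 1.5e-06). The DA effect differed from the aorta effect by -1.78 for Edn1 (SE 0.25, adjusted p = 3.4e-05) and by -0.60 for Cxcl12 (SE 0.12, adjusted p = 0.002). Of 14 adrenergic and muscarinic receptors, 9 were tested, and Chrm2, the cardiac and smooth muscle M2 receptor, fell in both vessels, by 2.39 in DA (SE 0.56, adjusted p by edgeR = 0.00441) and by 2.41 in aorta (SE 0.57, adjusted p = 0.00968). The medians of these lists were 0.14 and -0.53 in DA and 0.20 and 0.36 in aorta.

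Summed markers of Schwann cells and glia were higher in Prdm6-deficient DA than in the control DA libraries other than replicate 7, and the groups overlapped. Their 12 genes summed to 61.5 to 87.9 CPM in 6 control DA libraries, 296 CPM in control DA replicate 7 and 141 to 253 CPM in Prdm6-deficient DA. In aorta they summed to 49.0 to 89.2 CPM in controls and 74.6 to 157 CPM in Prdm6-deficient libraries. By gene, 3 of 12 were called higher in Prdm6-deficient DA (Fabp7, Gfra3 and Dhh, the last of which endothelium also makes), 0 of 12 were lower and 0 of 12 were called in aorta, with medians of 1.19 and 0.84. The log2 fold change was above 0 for 9 of the 12 in DA and for 11 of the 12 in aorta. In the test of the difference between the vessels 0 of 12 were called, with a median of 0.29. Fabp7, a lipid carrier of immature glia, was at 0 to 3.32 CPM in DA of controls and 8.61 to 18.0 CPM in DA of Prdm6-deficient embryos (3.09, SE 0.73, adjusted p = 0.00454). Sox10, the defining factor of the lineage, was at 2.39 to 14.9 CPM in control DA libraries and 10.7 to 29.5 CPM in those of Prdm6-deficient DA (log2 fold change 1.40, SE 0.44, adjusted p by edgeR = 0.0362). Prph, Stmn2 and Elavl4 in DA were measured in these same libraries, and the part of glial RNA in their values was not tested. With the group means taken out, Pearson's r with the glial sum over the 23 libraries was 0.67 for Prph, 0.43 for Tubb3, 0.40 for Elavl4, 0.17 for Gap43 and 0.05 for Stmn2, as a description of libraries that share depth and dissection. In Prdm6-deficient aorta, replicate 2 had the lowest Elavl4 (17.5 CPM) and the lowest glial sum (74.6 CPM, within the control range). Replicate 3 of that group had the highest of both (53.2 and 157 CPM). In Prdm6-deficient DA, the highest Elavl4 (13.4 CPM) was in replicate 5 and the highest glial sum (253 CPM) in replicate 1. Control DA replicate 7 had the highest Elavl4 of its group, at 2.89 CPM, and the highest glial sum of all libraries.

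**Figure D5:**
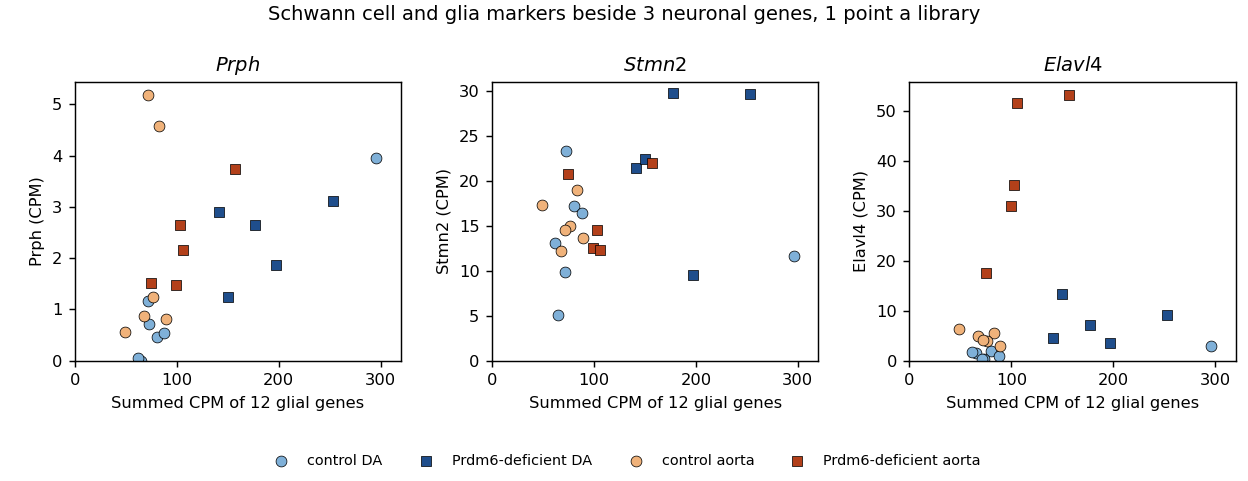
Level of Prph, Stmn2 and Elavl4 in CPM (vertical axes) against the summed CPM of 12 Schwann cell and glia genes (horizontal axes), 1 point a library, by group. Prdm6-deficient DA libraries lie at 141 to 253 CPM on the horizontal axis, control DA replicate 7 at 296 CPM, and the highest Elavl4 values lie at 157 CPM or less.

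Markers of sensory neurons and chromaffin cells were low but not absent. Sensory neuron genes (7 markers) summed to 0.312 to 6.78 CPM, with a median of 3.9 CPM in control DA. None of the 7 was at or below 3 counts in every control DA library. Prdm12 was at or below 3 counts in every library outside control DA, where it reached 8 counts. Chromaffin cell genes (5 markers) summed to 0.222 to 6.42 CPM except in Prdm6-deficient aorta replicate 4, where they reached 16.6 CPM, mostly as Chga at 13.8 CPM, and Pnmt was at or below 3 counts in every library. Melanocyte genes (6 markers) summed to 32.2 to 229 CPM in control DA and 1.20 to 14.8 CPM in all other groups. The smooth muscle sum was lower in Prdm6-deficient DA (9438 to 11490 CPM) than in control DA (13245 to 23488 CPM), and the share of it in the rise of Elavl4 in DA was not tested. In aorta the same sum was 8085 to 11512 CPM in controls and 8890 to 10632 CPM in Prdm6-deficient libraries. Skeletal muscle genes (5 markers) summed to 48.4 to 229 CPM in control DA libraries and 17.7 to 41.9 CPM in those of Prdm6-deficient DA, while heart muscle, erythroid, endothelial, macrophage and epithelial sums overlapped between the genotypes there. In aorta, macrophage genes (6 markers) summed to 71.9 to 135 CPM in controls and 41 to 60.4 CPM in Prdm6-deficient libraries, with no overlap, a median log2 fold change of -1.19 and 0 of 6 called. Of 6 endothelial genes, Emcn (1.23, SE 0.22, adjusted p = 6.9e-04) and Tek (0.57, SE 0.13, adjusted p = 0.0061) were called higher in Prdm6-deficient aorta, and the sums were 574 to 996 CPM in controls and 759 to 1236 CPM in Prdm6-deficient libraries. The part of these cells in the neuronal genes' values was not tested.

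Levels of the 5 members tested were also set against each other across libraries. Over the 23 libraries, with the 4 group means taken out of log2 CPM, Pearson's r between pairs of the 5 members tested ran from -0.19 (Tubb3 with Elavl4) to 0.42 (Tubb3 with Prph), and Elavl4 with Stmn2 stood at 0.03. These values describe libraries that share depth and dissection, and they carry no test. The tested genes outside the set most like the mean standardized level of the 5 members over the 23 libraries were Cbfb, Bcl6b and Sh3bgrl2, with r of 0.83, 0.81 and 0.79, and with the group means taken out they were Tmed5, Zfp932 and Aqp7, with 0.83, 0.76 and 0.75. Elavl4 alone was compared in the same way after its values had been seen. The genes most like it over all libraries were Ndufv3, Angpt1 and Pdgfrb, with r of 0.91, 0.90 and 0.90, and those r hold the group differences. Angpt1, a ligand of the endothelial Tek receptor, was called in both vessels, with log2 fold changes of 3.01 in DA and 3.86 in aorta, and Pdgfrb, a receptor of mural cells, was called in DA (0.55) and not in aorta (0.32). With the group means taken out, the first was Oscp1 with 0.77, and Piezo2, a mechanosensitive channel, followed at rank 3 with 0.73 and was called in both vessels (1.75 in DA and 2.84 in aorta).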

How the data were processed

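Paired-end reads were filtered by the authors for base quality (FASTX-Toolkit), cleared of adapters (tagdust), aligned to mm10 with a GENCODE annotation by STAR and quantified by RSEM. The versions of STAR and RSEM are not given in the sources used here. The deposited values are RSEM expected counts (estimated counts per gene, with no scaling for depth or length), in 1 table of 54752 genes whose 23 sample columns all matched a labelled sample, and 0 columns were of no known sample. RSEM divides reads that fit several genes, so values with fractions occur, and these were rounded to integers here. Symbols and positions came from GENCODE M21, in which 54723 gene IDs were found, and promoter windows from RefSeq (GRCm38.p6).

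The test was edgeR 4.0.16 in R 4.3.3 (filterByExpr, TMM, quasi-likelihood, 1 mean per tissue and genotype over all 23 samples), with Benjamini-Hochberg adjustment over 16463 genes. Genes were called where the adjusted p was below 0.01 and the log2 change beyond 0.5 either way, thresholds taken from the study, whose text names no test. The procedure was run on counts simulated with the same dispersion for every gene, without shared embryos or pools. That run checks that the fit works and does not bear on the calls made here. Levels are TMM-scaled CPM, and likeness used log2 CPM with a prior count of 2.

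The members, gene lists and rule for named genes were chosen with earlier results of these data known. The rule names all members, Prdm6, list genes called in a comparison of genotypes or of their difference, 2 to 4 others per list with the highest level, and the 12 genes most like the mean of the members tested, of which the first 3 are printed. Elavl2, Elavl3, Ddc, Slc18a2, Slc6a2, Snap25, Nefm and Sox10 were named for their roles after their values were seen, in place of the genes with the highest level, and some list genes are not reported here. Same-numbered samples of different groups correlated at -0.0543 to 0.133 in their deviations from group means. Samples that share an embryo, among them a pool of 2 embryos and the aorta of each, correlated at -0.0215 to 0.0804. Vessels of an embryo are paired by the animal number in the labels, and replicate numbers pair nothing. Alternatives were RLE and upper-quartile scaling, no filter, DESeq2 1.42.0, limma 3.58.1 (voom with the animal as a random block, consensus correlation 0.0337), the animal series as a covariate or alone, replicate and animal blocks, only the groups compared, no pools, no control embryo with Cre, and each library left out.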

Additional observations from a re-analysis of the deposited data

Results flagged for a closer look

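For each member and group with any library above 3 counts, the highest and the lowest library were compared with their neighbours by Dixon's criterion at the 95% level. Of 30 such pairs of gene and group, 5 held a library far from the rest, and 6 more pairs with no library over 3 counts were left out. Chance gives about 1 in 20 for values that vary continuously. That rate does not apply to the 3 found for Th and Dbh, genes otherwise at or near 0, where a single library above 3 counts sets the gap. Th stood at 0.354 CPM (7 counts) in control DA replicate 2, with 0 in the other 6 control DA libraries. Dbh stood at 0.229 CPM (5 counts) in Prdm6-deficient DA replicate 5, where the next library had 0.0491 CPM, and at 1.11 CPM (24 counts) in Prdm6-deficient aorta replicate 3, where the next had 0.0488 CPM. Tubb3 was low in Prdm6-deficient DA replicate 5, at 0.0916 CPM (2 counts) against 1.5 CPM in the next lowest library, and that library had the highest Elavl4 of its group, at 13.4 CPM. Prph was high in control DA replicate 7, at 3.95 CPM (82 counts) against 1.17 CPM in the next, and that library also had the highest glial sum, Elavl4 and Tubb3 of its group. No library of Elavl4, Stmn2 or Gap43 stood apart by this criterion.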

How the results depend on the processing

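Elavl4 remained the member called in both comparisons of genotypes with every library left out in turn (log2 fold change 2.12 to 2.72 in DA and 2.86 to 3.19 in aorta), and in the aorta under all 11 other alternatives (2.85 to 3.03). In the DA it was called under 10 of 12 others, and 0 members were called with limma-voom and the animal as a random block (Elavl4 2.55, adjusted p = 0.031) or in series 2 alone. Between control vessels 0 members were called with limma-voom and the animal block (Elavl4 -1.93, adjusted p = 0.123), in a fit of the 2 groups compared (-1.73, 0.0179), in series 2 alone (-1.54, 0.0196) and with the animal block among control embryos (-2.03, 0.0348). Between Prdm6-deficient vessels the count was 0 with the replicate block (Elavl4 -2.32, adjusted p = 0.0167), without the pooled samples (-2.22, 0.0533), in series 1 alone (-2.16, 0.21) and in series 2 alone (-3.02, 0.0534), and 0 to 1 with 1 library left out. The replicate block changed no other call, and replicate numbers pair no samples by the labels. Why these calls were lost was not tested, though subsets hold fewer samples.

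The near-zero changes of members that were not called turned sign. Gap43 in DA, at 0.00 over all libraries, ran from -0.48 in series 2 to 0.36 in series 1, was -0.11 with series as covariate, and ran from -0.11 to 0.12 with 1 library left out. For Tubb3 with Prdm6 loss in DA it was -0.20 without the pooled samples and -0.42 in series 1, and -0.11 to 0.48 with 1 library left out. In aorta it was -0.60 with limma-voom, -0.14 with series as covariate, -0.21 with the replicate block, -0.08 without the control embryo with Cre, -1.16 in series 2, and -0.42 to 0.32 with 1 library left out. In aorta, Stmn2 was -0.07 in series 2 (-0.02 to 0.19 with 1 left out), and Prph was -0.10 without the embryo with Cre and -0.53 in series 2 (-0.18 to 0.52). Between control vessels, Tubb3 ran from -0.46 to 0.13 with 1 left out. Between Prdm6-deficient vessels, Tubb3 was -0.42 with the replicate block, -0.28 without pools and -1.19 in series 1 (-0.30 to 0.44), and Prph was -0.03 with limma-voom, -0.60 with the replicate block, -0.27 without pools and -0.46 in series 1 (-0.10 to 0.27). The difference of effects for Tubb3 was -0.21 without pools (-0.23 to 0.51).

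The number of genes called in all moved by over 1.5 times in DA in series 1 (201) and series 2 (419) against 894, in aorta in the fit of 2 groups (702), in series 2 (226) and at an adjusted p below 0.05 (616) against 404, and in the difference of effects in series 2 (166) and at 0.05 (769) against 425. Between Prdm6-deficient vessels it was 44, against 137 with DESeq2, 70 with limma-voom, 16 with the replicate block, 83 in the fit of 2 groups, 15 without pools, 3 and 6 within series and 129 at 0.05, and it was 22 to 29 when any 1 of Prdm6-deficient DA replicates 1 and 2 or Prdm6-deficient aorta replicates 1, 2, 4 and 5 was left out. Depth limits Phox2a, Th, Dbh and Chrna3, which were below the filter.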

Other observations

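Th and Dbh, which act in sequence in the same neurons, were not found above 3 counts in the same library. More than 3 counts of Th were found in 6 libraries and of Dbh in 4, and no library held more than 3 counts of both. At lower counts both were present in 3 libraries, Prdm6-deficient DA replicate 5 (1 count of Th and 5 of Dbh), Prdm6-deficient aorta replicate 3 (3 and 24) and Prdm6-deficient aorta replicate 5 (2 and 1). In control aorta, where Th reached 48 counts, Dbh was at 0 in all 6 libraries. Both genes are so low that each value rests on few reads, and this was noticed after the values were seen. Whether fewer libraries held both genes than chance would give for 6 and 4 libraries was not tested.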
